A study of Homo sapiens with 2 samples.

Results

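The genes described here encode isozymes of phosphoinositide-specific phospholipase C (PLC), taken by symbol from the count tables of 2 human cell lines. The set held 10 of the 24462 gene symbols, in 5 classes: beta (PLCB1, PLCB3, PLCB4), gamma (PLCG1, PLCG2), delta (PLCD1, PLCD3), epsilon (PLCE1) and eta (PLCH1, PLCH2). All 10 had a single row in each table. The set was chosen by gene family and selected on the RT-R to parental count ratios of these same 2 libraries, above all those of PLCB4 and PLCH2, so the ratios below describe the members and test nothing. MDA-MB-231 is a widely used cell line of triple negative breast cancer, and RT-R-MDA-MB-231 is a radiotherapy-resistant derivative made by giving it 2 Gy of X-rays again and again until 50 Gy was reached. Both were grown in the same RPMI medium with serum and antibiotics, and each gave 1 library of 3' tag reads from total RNA. Whether the resistant line is 1 clone, and how long it was cultured apart from the parental line, is not given in the sources used here.

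PLC enzymes cleave the membrane lipid phosphatidylinositol 4,5-bisphosphate into inositol trisphosphate (IP3), which releases calcium from the endoplasmic reticulum, and diacylglycerol, which activates protein kinase C. The classes differ in what switches them on: beta enzymes answer to Gq-class and beta-gamma G protein subunits, gamma enzymes to tyrosine kinases, delta enzymes to calcium, epsilon to GTPases of the Ras family, and eta enzymes to small rises in calcium. In breast cancer cells the gamma class is best known for carrying growth factor receptor signals to cell motility, whereas PLCB4 and both eta enzymes are best known from neurons and PLCG2 from blood cells.

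The parental library held 9255008 counts and the RT-R library 10014804. With 1 library per line there is no replicate check and no p-value. Each fold ratio is of counts brought to a common library size with TMM (trimmed mean of M-values). Its 95% interval covers counting error only and treats each read as independent. Reads without molecular identifiers are not independent molecules, so the interval may be too narrow even for that. A gene was measured when either library held 20 counts or more. It was called higher or lower when it also differed by 2-fold or more and its interval excluded 1. Up to 3 counts were allowed for where a library had none. The line's label was checked against marker genes. The estrogen receptor gene ESR1 had 0 parental counts and 1 RT-R count, and the progesterone receptor gene PGR had none. The luminal-type genes ERBB2 (230 and 174), GATA3 (152 and 113), CDH1 (32 and 68) and FOXA1 (11 and 7) were read in both libraries. The 6 mesenchymal-like markers summed to 30383 and 34161 counts with 0 called, among them VIM with 4310 and 8454, MSN with 11258 and 8165 and CAV1 with 4816 and 4001.

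The resistant library contained a PLC beta and a PLC eta transcript that the parental library lacked, and more reads of PLCD3 and PLCG2. PLCB4 had 0 parental counts and 104 RT-R counts. PLCH2 had 0 and 96. PLCD3 had 718 and 1283, and PLCG2 had 54 and 109. PLCG1 and PLCE1 gave intervals that included equal expression. Of the 10 members, 7 were measured, the others being PLCB1, PLCD1 and PLCH1. Of the 7, 2 were called higher and 0 lower, against 6.89% of all 12644 measured genes called higher and 3.97% called lower. PLCB4 and PLCH2 were measured only through the RT-R library, so these counts carry no support beyond the values themselves. Of the 7, 5 had an interval above 1, where 27.7% of all measured genes did, and 0 had an interval below 1, against 30.4% of all measured genes.

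**Figure D1:**
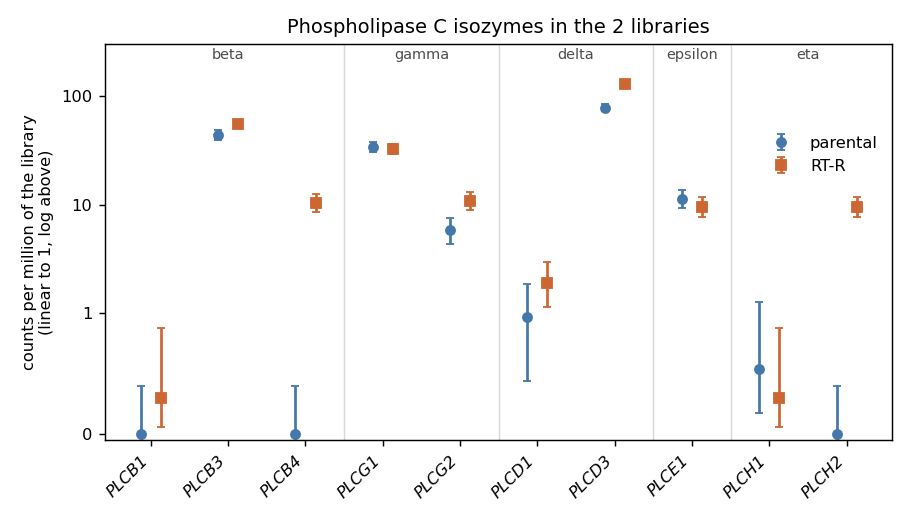
CPM of the library's own total for each isozyme, with exact 95% binomial intervals, circles for parental and squares for RT-R. PLCB4 and PLCH2 lie at 0 in the parental library and at 10.4 and 9.59 CPM in RT-R, while PLCD3 is the highest isozyme in both.

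PLCB3, a broadly expressed isozyme driven by both alpha and beta-gamma subunits of G proteins, was the main beta transcript. It had 405 parental and 558 RT-R counts, a ratio of 1.24 (1.09 to 1.41), so it was not called. PLCB4, an isozyme known from cerebellar Purkinje cells and retina, was 31.1-fold higher in RT-R with 0 set at 3 counts. Its exact lower limit was 24.8-fold. The 0 counts in the parental library allow up to 0.324 CPM (counts scaled to a library of 1000000). In RT-R it stood near the middle of the detected genes, with 9030 of 17598 symbols (51.3%) holding more counts. PLCB1, its closest neighbour in the gene order of chromosome 20, had 0 and 3 counts, so no ratio is given. The class sum went from 405 to 665 counts, a ratio of 1.47 (1.30 to 1.67), and without PLCB4 it was 1.24.

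Among all symbols, 30 had 0 parental counts and at least 20 RT-R counts, which is 0.237% of the measured genes. Ranked by RT-R counts, PLCB4 was the third and PLCH2 the fourth of these 30, whose median was 30.5 counts. In the other direction, 3 measured genes had counts in the parental library and none in RT-R.

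PLCH2, a calcium-sensitive isozyme known from brain, was 28.7-fold higher in RT-R with 0 set at 3 counts, and its exact lower limit was 22.9-fold. Its only relative in the class, PLCH1, went the other way in number, with 5 and 3 counts, and its interval was wide, from 0.0835 to 2.77 around a ratio of 0.54. The eta class as a whole therefore went from 5 to 99 counts, a ratio of 17.8 (7.36 to 55.9) that rests on PLCH2. In the parental library the class held 0.311% (0.101 to 0.724) of the PLC counts and in RT-R 3.82% (3.11 to 4.63).

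The promoter sequences below are shown for PLCH2, which appeared in RT-R, and for the gamma pair and PLCD3, whose levels it can be set beside. Each is the 250 bases before an annotated transcription start, 5′ to 3′ on the gene's strand, from RefSeq on GRCh38.p14, with every CpG dinucleotide in capitals. Of the 10 members, 7 were found in that table. It holds 3 starts for PLCH2, and the third, whose window overlaps that of the second almost wholly, is not printed.
PLCH2, first start, chr1:2467201-2467450, plus strand: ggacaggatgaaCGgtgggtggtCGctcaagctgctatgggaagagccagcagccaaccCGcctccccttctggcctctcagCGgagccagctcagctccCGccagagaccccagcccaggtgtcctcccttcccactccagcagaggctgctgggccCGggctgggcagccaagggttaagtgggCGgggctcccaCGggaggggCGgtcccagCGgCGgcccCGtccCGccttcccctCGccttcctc
PLCH2, second start, chr1:2476039-2476288, plus strand: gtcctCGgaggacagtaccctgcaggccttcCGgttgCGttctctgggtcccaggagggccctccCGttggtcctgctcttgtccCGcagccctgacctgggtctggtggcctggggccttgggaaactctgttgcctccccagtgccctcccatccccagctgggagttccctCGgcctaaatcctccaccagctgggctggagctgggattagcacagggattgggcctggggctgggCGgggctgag
PLCG1, chr20:41137293-41137542, plus strand: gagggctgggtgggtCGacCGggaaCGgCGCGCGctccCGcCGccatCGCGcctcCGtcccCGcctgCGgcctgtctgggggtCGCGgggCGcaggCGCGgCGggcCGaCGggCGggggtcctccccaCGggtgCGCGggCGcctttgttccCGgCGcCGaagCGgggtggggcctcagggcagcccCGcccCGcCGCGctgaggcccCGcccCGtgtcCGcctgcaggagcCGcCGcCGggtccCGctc
PLCG2, chr16:81738791-81739040, plus strand: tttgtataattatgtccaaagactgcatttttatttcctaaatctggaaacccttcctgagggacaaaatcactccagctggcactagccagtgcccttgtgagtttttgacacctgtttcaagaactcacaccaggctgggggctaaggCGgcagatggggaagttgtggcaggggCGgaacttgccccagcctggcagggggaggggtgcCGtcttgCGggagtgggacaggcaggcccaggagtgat
PLCD3, chr17:45132516-45132765, minus strand: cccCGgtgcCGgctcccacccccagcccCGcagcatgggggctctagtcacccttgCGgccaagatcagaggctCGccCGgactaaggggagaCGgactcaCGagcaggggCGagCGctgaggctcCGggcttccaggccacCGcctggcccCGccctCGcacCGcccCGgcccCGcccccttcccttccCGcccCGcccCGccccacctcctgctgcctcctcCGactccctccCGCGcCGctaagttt

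These windows differed in CpG content. The median over 35116 RefSeq windows of the same length was 11 CpG. PLCG1, whose ratio below includes equal expression in its interval, had 41, a number reached by 1.73% of windows. PLCD3 had 24, reached by 23.7%. The PLCH2 starts had 14, 7 and 6, and PLCG2 had 4, a number reached by 70.7% of windows. A GC box (GGGCGG, either strand) was found 6 times before PLCD3, 3 times before PLCG1, 2 times before the first PLCH2 start, and 1 time before each of the other PLCH2 starts and before PLCG2, and in 42.6% of all windows. None of the windows printed held a TATA box (TATAAA, found in 10.7% of windows), an AP-1 motif (TGANTCA, 6.57%) or a TCF/LEF motif (ATCAAAG, 2.26%), each searched on both strands. Nor did they hold a cAMP response element (TGACGTCA, 1.65%). An E-box (CANNTG, 61.8%) was found 3 times before PLCG2 and 1 time before the first PLCH2 start. It was found 2 times before each of the other PLCH2 starts and 0 times before PLCG1 and PLCD3. A match is only a run of letters, and which start was used in these cells cannot be read from 3' tags.

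The gamma isozymes did not keep their proportion. PLCG1, the widely expressed isozyme activated by growth factor receptors, had 313 parental and 324 RT-R counts, a ratio of 0.93 (0.792 to 1.09). PLCG2, the isozyme of B cells and other blood cells, had 54 and 109 counts, a ratio of 1.81 (1.29 to 2.56), so it was not called. There were 0.173 PLCG2 counts for each PLCG1 count in the parental library and 0.336 in RT-R. The ratio of these values was 1.95 (1.34 to 2.86), a number that does not depend on how the libraries were scaled. The class sum of 367 and 433 counts gave a ratio of 1.06 (0.918 to 1.22).

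Markers of blood cells gave no common picture beside PLCG2. Of 10 such genes, the leukocyte gene PTPRC and the lymphocyte genes CD79A, MS4A1 and CD3E were at 0 in both libraries. CD68, a lysosomal protein found outside blood cells too, had 346 and 452 counts, and CD14, a monocyte receptor, was called higher with 14 and 39. CD14 reached 20 counts only in RT-R, so its call carries no support beyond its values. The 10 genes summed to 366 and 494 counts. For the isozymes known from neurons, 6 neuronal markers summed to 111 and 214 counts, with STMN2 and SLC17A7 at 0 in both libraries, RBFOX3 at 0 and 19, SYT1 at 20 and 42, SNAP25 at 6 and 0, and GAD1 at 85 and 153. The part of these genes in the results was not tested.

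PLCD3, a calcium-activated delta isozyme, held the most PLC reads in both libraries. Its 718 and 1283 counts gave a ratio of 1.60 (1.46 to 1.76), so it was not called. In RT-R only 9.03% of detected symbols had more counts, against 16.5% in the parental library. PLCD1, a close relative, had 9 and 19 counts and was not measured. Its ratio of 1.89 had an interval from 0.816 to 4.75. The delta sum of 727 and 1302 counts gave a ratio of 1.61 (1.47 to 1.76).

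PLCE1, the isozyme that also carries a Ras exchange factor domain, had 105 and 96 counts, a ratio of 0.82 (0.615 to 1.09). As a share of the PLC counts it went from 6.53% (5.37 to 7.84) to 3.70% (3.01 to 4.499), so its share was smaller although its own level was not separated from equal.

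**Figure D2:**
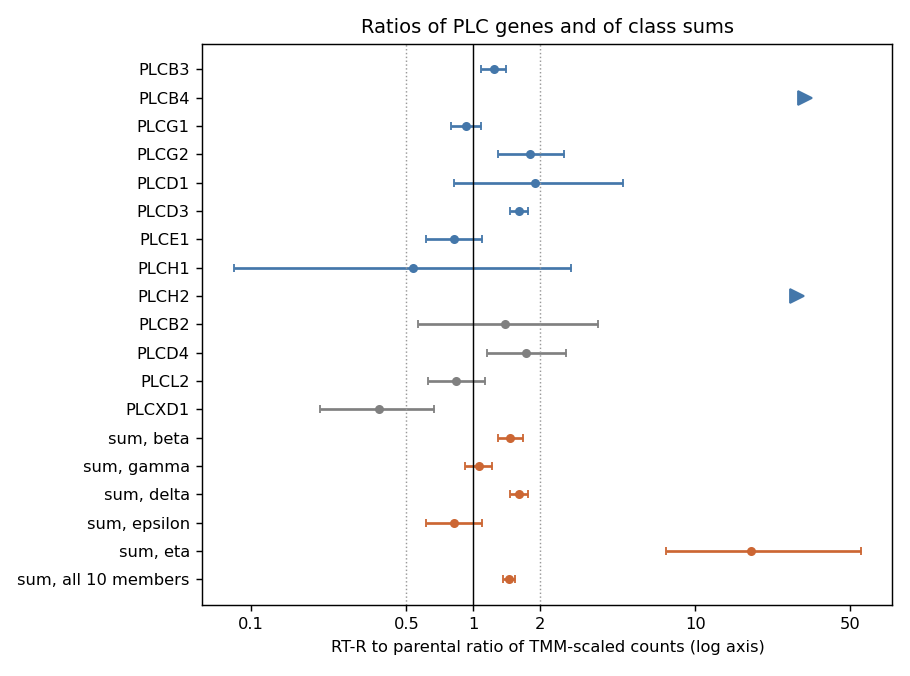
RT-R to parental ratios of TMM-scaled counts on a log axis, with exact 95% counting intervals, for members (blue), other PLC family genes (grey) and class sums (orange). Triangles mark lower bounds for genes with 0 parental counts, at 31.1 for PLCB4 and 28.7 for PLCH2, and dotted lines mark 2-fold.

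Summed over the 10 isozymes, the PLC counts went from 1609 to 2595, a ratio of 1.45 (1.36 to 1.54). PLCD3 made up 44.6% (42.2 to 47.1) of the parental and 49.4% (47.5 to 51.4) of the RT-R counts. PLCB3 went from 25.2% (23.1 to 27.4) to 21.5% (19.9 to 23.1) and PLCG1 from 19.5% (17.5 to 21.5) to 12.5% (11.2 to 13.8). PLCB4 reached 4.01% (3.29 to 4.84) and PLCH2 3.70% (3.01 to 4.499), each from 0 of 1609 counts, which allows up to 0.186%. The intervals are exact Clopper-Pearson intervals, and the limit for 0 counts is 3 counts of the total.

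**Figure D3:**
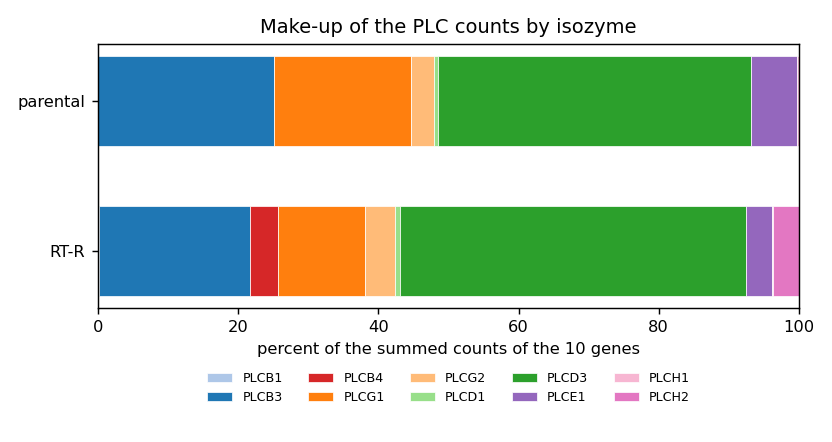
Percent of the summed counts of the 10 isozymes taken by each isozyme, 1609 parental and 2595 RT-R counts. PLCB4 and PLCH2 appear only in the RT-R bar, where PLCG1 and PLCE1 take smaller shares than in the parental bar.

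A 3' tag counts a transcript end, so these levels are per transcript and were not divided by length. In the parental library the order was PLCD3, PLCB3, PLCG1, PLCE1, PLCG2 and PLCD1, each separated from the next beyond counting error. PLCD1 and PLCH1, with 9 and 5 counts, were not separated. In RT-R the first 3 were the same, and the next 4, PLCG2, PLCB4, PLCE1 and PLCH2, lay between 109 and 96 counts, and none was separated from the next within these 4. PLCG2 was separated from PLCG1 above it, and PLCD1 from PLCH2. The last 3, PLCD1, PLCB1 and PLCH1, had 19, 3 and 3 counts.

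The transcript ends that 3' tags read were compared between members. In GENCODE 29, no stretch of 50 bases from the last 500 bases of a member's coding transcripts occurred in any transcript of another member. PLCB4, PLCH2, PLCB3, PLCB1 and PLCD1 shared none with any other gene. For the rest, between 0.0554% (PLCG2) and 6.53% (PLCH1) of such stretches were found elsewhere. The longest coding sequences ran from 2331 bases in PLCD1 and 2367 in PLCD3 to 6906 in PLCE1, with 3582 in PLCB4 and 4248 in PLCH2. The members also differ in how many ends they have, from 1 for PLCD1 and 4 for PLCH2 to 7 for PLCB4 and 16 for PLCB1.

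Some members overlap other genes in the RefSeq table, and the use of strand in the counting is not given, so their reads cannot be told apart with certainty. PLCG1 overlaps PLCG1-AS1, which had 74 and 86 counts. PLCD3 overlaps NMT1 (2243 and 2456 counts) and ACBD4 (69 and 51), neither of which was called. PLCE1 overlaps NOC3L (227 and 315 counts) and 2 antisense genes with at most 2 counts. PLCB4 and PLCH2 overlap none of the genes in the count tables.

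The genes around PLCB4 and PLCH2 were compared with them because neighbours can differ together. On chromosome 20 the nearest measured genes were TMX4, with 343 and 261 counts, and ANKEF1, which rose from 11 to 32. Of the 30 measured neighbours of PLCB4, 2 were called higher and 1 lower, with a median log2 ratio of 0.02. These counts are near the shares over all measured genes, 6.89% called higher and 3.97% called lower. On chromosome 1 the nearest measured genes to PLCH2 were PEX10, with 250 and 334 counts, and PANK4, with 24 and 48. Of its 30 neighbours 2 were called higher, ARHGEF16 (17 and 84 counts) and MEGF6 (5 and 111), 1 was called lower, and the median log2 ratio was 0.10. These counts are near the same shares. ANKEF1, itself called higher, ARHGEF16 and MEGF6 reached 20 counts only in RT-R. The gene called lower near PLCH2, with 24 and 9 counts, reached 20 only in the parental library. Such calls carry no support beyond the values themselves. The median of the neighbours was -0.06 for PLCD3 and 0.23 for PLCG2, against log2 ratios of 0.68 and 0.85 for these members. The nearest measured gene before PLCG2, CMIP, was itself called higher, with 1189 and 2823 counts and 2.13-fold (1.99 to 2.28). The nearest after it, SDR42E1, had 83 and 110 counts and was not called.

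**Figure D4:**
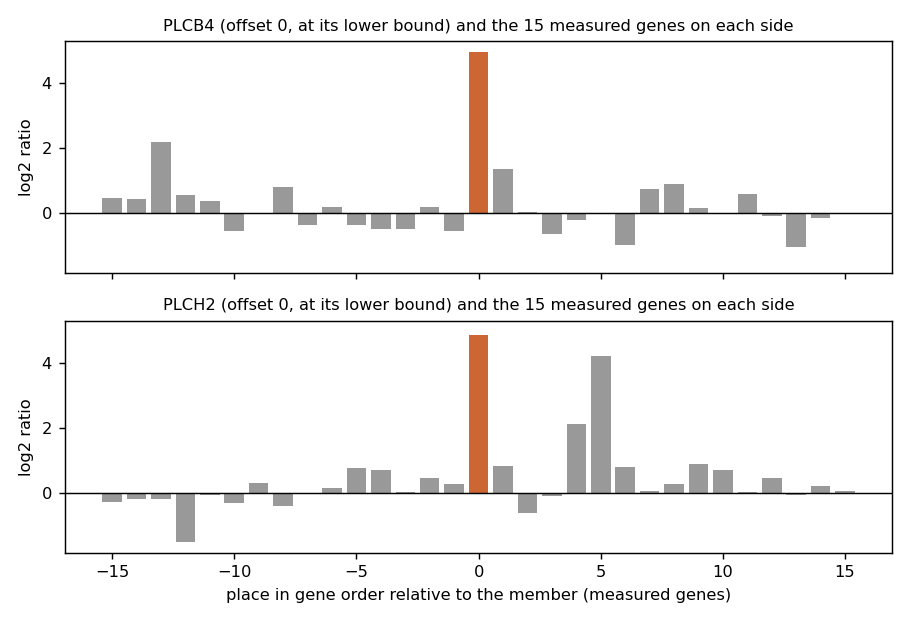
Log2 RT-R to parental ratios of PLCB4 and PLCH2, drawn at their lower bound, and of the 15 measured genes on each side in gene order. Of the 30 neighbours 2 were called higher and 1 lower around each, near the shares of 6.89% and 3.97% over all measured genes. MEGF6 and ARHGEF16 are the tall bars beside PLCH2.

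The PLC family has further members that were read in the same way. PLCD4, a delta isozyme, had 38 and 73 counts and a ratio of 1.72 (1.15 to 2.62), close to that of PLCD3. The ratio of the PLCD4 to the PLCD3 value was 1.08, with an interval from 0.708 to 1.65. PLCB2, a blood cell isozyme, had 9 and 14 counts and was not measured. PLCL2, a relative without catalytic activity, had 96 and 90 counts, a ratio of 0.84 (0.623 to 1.13). PLCXD1, which holds only the X domain and lies in the pseudoautosomal region, fell from 43 to 18 counts over its 2 rows, 2.66-fold (1.505 to 4.91). PLCZ1 and PLCXD2 had no count, and PLCL1 and PLCXD3 had at most 2.

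Genes that act before and after PLC were taken from 11 lists, which were drawn up knowing that PLCB4 and PLCH2 differed. Of 161 measured genes, 13 (8.07%) were called higher and 7 (4.35%) lower, near the shares of 6.89% and 3.97% over all measured genes. Their median log2 ratio was -0.03, against -0.01 for all measured genes. A gene with under 20 counts in 1 library was measured only through the other, where it was high. Among the genes named below, this held for BDKRB1, BDKRB2, CHRM3, RGS16, ITPKB, RASGRP3 and CHN2, all called higher. It held through the parental library for F2RL3, P2RY6, RYR2 and UNC13A, all called lower. Such calls carry no support beyond the values themselves.

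Receptors that couple to Gq, the usual route to PLC beta, held calls in both directions. Of 20 measured, 7 were called higher and 3 lower, with a median log2 ratio of -0.14. The shares over all measured genes were 6.89% and 3.97%, and several of these calls reached the count minimum in 1 library alone. With a minimum of 100 counts, 1 was called higher and 1 lower. Both bradykinin receptor genes were absent from the parental library. With 0 set at 3 counts, BDKRB2, with 0 and 61, was 18.2-fold higher (exact lower limit 14.4). BDKRB1, with 0 and 26, was 7.77-fold higher (exact lower limit 5.88). The muscarinic receptor gene CHRM3 rose from 12 to 63 counts, 4.71-fold (2.52 to 9.59). Among those that fell were the thrombin receptor gene F2RL3, from 57 to 5 counts, 12.7-fold (5.14 to 40.6), and the nucleotide receptor genes P2RY6, 5.98-fold (3.11 to 12.6), and P2RY2, from 324 to 110 counts, 3.28-fold (2.64 to 4.12).

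The G proteins and the inputs to the other classes were counted next, and these small counts are to be read against the same shares of 6.89% and 3.97%. Of 11 measured Gq-class subunits and regulators, 1 was called higher: RGS16, which speeds the shut-off of G protein signals and rose from 4 to 37 counts, 8.29-fold (2.98 to 32.03). Of 11 measured beta and gamma subunits 0 were called in either direction, and GNG2 had the largest difference, with 82 and 48 counts. Upstream of PLC epsilon, 1 of 15 measured GTPases and exchange factors was called, the X-linked gene RAP2C, which fell from 228 to 90 counts, 2.83-fold (2.204 to 3.65). The 424 measured genes of the X chromosome had a median log2 ratio of -0.78 themselves, and the part of this in RAP2C and PLCXD1 was not tested. Upstream of PLC gamma, 0 of 14 measured adaptors and kinases were called. The Src-family kinase gene FYN had 130 and 283 counts and a ratio of 1.95 (1.58 to 2.42), which passes 2-fold when libraries are scaled by their totals or upper quartile.

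Supply of the lipid and breakdown of IP3 gave a single call, to be read against the same shares of 6.89% and 3.97%. In phosphoinositide supply 0 of 18 measured genes were called, and the kinase gene PI4K2B had the largest difference, with 186 and 114 counts. In inositol phosphate metabolism 1 of 22 was called: ITPKB, a kinase that phosphorylates and so removes IP3, rose from 13 to 68 counts, 4.69-fold (2.57 to 9.26).

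Downstream counts are again to be read against 6.89% of all measured genes called higher and 3.97% lower. Of 16 measured genes of IP3 receptors and calcium stores, 0 were called higher and 2 lower. ATP2B4, a plasma membrane calcium pump, fell from 553 to 238 counts, 2.59-fold (2.22 to 3.03). RYR2, a calcium release channel, fell from 31 to 17 counts, 2.03-fold (1.09 to 3.92), a call lost under each of the 3 other scalings. On the diacylglycerol side, 2 of 10 measured protein kinase C and D genes and substrates were called higher and 0 lower. These were isozymes that need diacylglycerol but not calcium: PRKCE, with 51 and 117 counts and 2.06-fold (1.47 to 2.92), and PRKCH, with 30 and 72 and 2.15-fold (1.39 to 3.41). Of 15 diacylglycerol kinases and other effectors, 2 were called higher and 1 lower. The Ras exchange factor gene RASGRP3 had 9 and 31 counts and rose 3.09-fold (1.44 to 7.38). CHN2, which switches off the GTPase Rac, had 8 and 21 and rose 2.35-fold (1.001 to 6.14), while the vesicle priming gene UNC13A fell from 20 to 6, 3.72-fold (1.44 to 11.3).

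**Figure D5:**
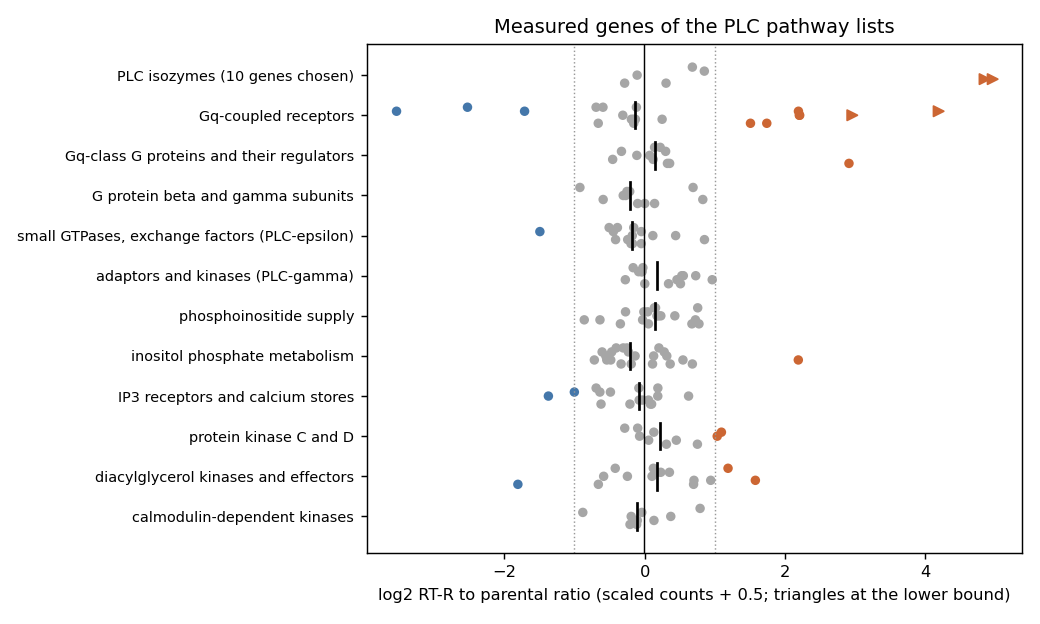
Log2 RT-R to parental ratio of each measured gene in the PLC set and the 11 pathway lists, with called genes in orange (higher) and blue (lower), list medians as black bars and genes with 0 parental counts as triangles at their lower bound. The list medians lie between -0.21 and 0.22, and the PLC set is drawn without a median because its members were chosen for these values.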

How the data were processed

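Per the labels' protocols, total RNA was made into Lexogen QuantSeq 3' tag libraries, 1 per line. The deposited values are raw counts for each gene symbol, whole numbers that the authors left unnormalized. Bowtie2, bedtools, bcl2fastq 2.20.0.422 and the hg19 build are named per the submitters' processing notes. What each tool did, the annotation and the use of strand were not given in the sources used here. Each table had 25737 rows, and repeated symbols were added up, leaving 24462 symbols. Libraries were scaled by TMM in edgeR 4.0.16 under R 4.3.3 (RT-R to parental size ratio 1.12). Ratios carry exact conditional (Clopper-Pearson) 95% intervals from scipy 1.17.1, and log2 ratios use a pseudocount of 0.5, which also sets the 2-fold threshold. With 1 library per line there is no test across samples, and edgeR gave scaling alone. A ratio against 0 counts took 3 counts in that library, and none is given where neither library exceeded 3. The calculations were tested on simulated libraries whose counts varied by independent counting error alone. Variation between libraries and reads that are not independent were therefore not covered.

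The members and lists were chosen with earlier results of these data known. The genes named are all members and PLC relatives, up to 3 higher and 3 lower per list ranked by the interval bound nearest to 1, or the largest difference where none was called, and genes next to or overlapping a member. Gene order came from RefSeq GRCh38.p14 by symbol or unambiguous synonym, which placed 98.6% of measured genes. The counts were made on hg19, so only the promoter windows carry coordinates. The PLCD4 and PLCD3 and the PLCG2 and PLCG1 pairs, and the marker and neighbour genes singled out, were chosen after their values were seen. CAMK1D, PLD1 and PLA2G16 were named outside the ranking rule. Alternatives were other scalings, count minimums, thresholds and pseudocount, fold alone, the highest row per symbol, neighbours subtracted and each class without its most changed member. One marker gene of these lists is not reported here.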

Additional observations from a re-analysis of the deposited data

How the results depend on the processing

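The scaling choice changed no count of PLC isozymes called and left every class ratio within its interval. With a minimum of 100 counts 1 isozyme was called higher (PLCB4). The number of all genes reaching that minimum is not given, so no share stands beside it. With a threshold of 1.5-fold 4 of the 7 measured isozymes were called higher, against 1734 of the 12644 measured genes. Without its most changed member the beta ratio was 1.24 and the eta ratio turned to 0.54 (5 and 3 counts). With neighbours subtracted the gamma ratio, whose interval includes 1, went from 1.06 to 0.94. Over all genes, 356 were higher and 265 lower with a minimum of 100 counts, 1734 and 1501 at 1.5-fold, and 292 and 67 at 4-fold. Over the pathway lists, the higher and lower counts were 2 and 3 with a minimum of 100 counts, 29 and 21 at 1.5-fold, and 7 and 2 at 4-fold. At 1.5-fold and 4-fold the lists held 161 measured genes, against 12644 over all genes. For a minimum of 100 counts neither number is given, so no share stands beside those counts. The counts under each setting differ by construction of the rule. No paired analysis was possible because each line has 1 library. For the same reason no replicate could be left out. With 3 counts as the limit of a count of 0, a parental level of PLCB4 or PLCH2 under 0.324 CPM is not detectable at this depth.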

Other observations

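Phospholipases that do not belong to the PLC family were read as a comparison. Of 10 measured phospholipase D, phospholipase A2 and related genes, 0 were called higher or lower by the 2-fold interval rule, against 6.89% of all measured genes called higher and 3.97% lower, so 0 of 10 is near the background. Their median log2 ratio was -0.07. PLBD1, a lysosomal phospholipase B-like gene, had the largest difference, with 128 and 219 counts and a ratio of 1.53 (1.23 to 1.92). PLD1, which makes phosphatidic acid, had 85 and 116 counts, a ratio of 1.22 (0.917 to 1.64), and PLA2G16, the most abundant of the list, had 5956 and 5624.

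Calmodulin and the kinases it activates, which read the calcium signal, were also measured. Of 9 measured genes 0 were called by the same rule, again near those shares, with a median log2 ratio of -0.10. The kinase gene CAMK1 had 676 and 409 counts, a ratio of 0.54 (0.479 to 0.614), and its relative CAMK1D had 172 and 332, a ratio of 1.73 (1.44 to 2.09).

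Of the endothelial markers, PECAM1, an adhesion receptor, fell from 223 to 50 counts, while CDH5, VWF, KDR, TEK and ERG had at most 4 counts in either library.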
